A study of Mus musculus with 4 samples.

Results

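Cultured mouse dorsal root ganglia that never received electrical stimulation were compared at 2 ages, 19 against 11 days in vitro (DIV). The 2 libraries compared were the control libraries of a series of 4, and 1327 of the 23282 gene rows, those with a mean of at least 1000 reads in these 2 libraries, were described first. The control group at 11 DIV and the control group at 19 DIV each consisted of ganglia taken from C57BL/6 embryos at embryonic day 13, seeded as explants on Matrigel, fed growth medium until 8 DIV and myelination medium from then on, and given no stimulation. The other groups, ES at 11 DIV and ES at 19 DIV, were cultured in the same way and differed in a pulse of electrical stimulation at 10 DIV (20 Hz, 50 mV/mm, 1 h). RNA of 3 explants was pooled for each condition, so every group was 1 library and a difference between 11 and 19 DIV cannot be told apart from a difference between explant pools or libraries. No replicate test was possible, and no p-value is given. The comparison addresses how unstimulated explants differed between an early and a late harvest in myelination medium.

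A dorsal root ganglion holds the cell bodies of sensory neurons, the satellite glia that wrap them, and Schwann cells that accompany the axons, with fibroblasts between them. In culture the axons grow out of the explant, and Schwann cells proliferate along them, build a basal lamina and, in medium that supports it, wrap larger axons in myelin. Myelination is driven by the transcription factors Sox10, Pou3f1 and Egr2, and it needs the structural proteins of compact myelin as well as large amounts of cholesterol and fatty acids. Cultured cells also carry responses to oxidants and metal ions, in which the factor NRF2 switches on antioxidant and glutathione genes through antioxidant response elements and the factor MTF1 switches on metallothioneins through metal response elements.

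The counts were tags from the 3′ ends of transcripts, in totals of 5782834 to 7830950 reads per library, 6197537 in control at 11 DIV and 6730614 in control at 19 DIV. Between 9632 and 9996 rows per library had a read. A count of 0 allows up to 3 reads by counting error alone, which corresponded to 0.376 to 0.518 CPM (reads scaled to a common total) after TMM scaling. The counts were clumped: a gene could have no read in 1 library and many in the other. Among 3500 rows with a mean of 50 to 200 reads, 1419 had 0 reads in 1 of the control libraries and the median absolute log2 difference was 3.92. This median was 1.18 for means of 200 to 500 reads, 0.80 for 500 to 1000 and 0.58 for 1000 to 3000. It was 0.62 for 3000 to 10000 reads and 0.66 from 10000 on, so it fell no further. Median log2 differences in these upper ranges were -0.17 and -0.51, towards lower at 19 DIV. No row with a mean of at least 1000 reads had 0 in either library. The control library at 11 DIV stood apart from the other 3. Rn45s, the ribosomal RNA precursor, took 5.18% of its reads against 2.65% to 3.08% in the others, the metallothioneins Mt1 and Mt2 together took 1.66% against 0.162% to 0.230%, and ribosomal protein genes took 4.91% against 3.22% to 4.04%. Of the 1327 rows, 482 (36.3%) had their highest level of the 4 libraries in this library and 285 (21.5%) their lowest. These rows were chosen by reads in the control libraries alone, which favours rows that are high in this library. A comparison without it does not exist for unstimulated ganglia, so the values of the stimulated libraries are given beside the main results.

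Of the 1327 rows, 161 were at least 2-fold higher at 19 DIV (12.1% of those rows) and 180 at least 2-fold lower (13.6%). By total counts in place of TMM, which moves every gene up by 0.13 on the log2 scale, the split was 207 higher and 144 lower. The median log2 difference over these rows was -0.06. Above equality lay 46.9% of them and below it 53.1%. These shares, with the 12.1% and 13.6% past 2-fold, are the background for every list count below. Because the libraries differed by far more than counting error, an interval that allows for the observed spread was computed as well. Both counts were divided by a spread factor of 229.7, the median squared difference of the 2 libraries relative to counting error over rows with means of 500 to 3000 reads, and the 95% interval of the ratio was taken on the divided counts. A gene was said to pass the spread-adjusted rule if it differed by at least 2-fold, had at least 50 reads in the higher library, and had a 99% interval on the divided counts that excluded equality. By this rule 16 rows were higher at 19 DIV (0.160% of the 10025 rows with enough reads) and 46 were lower (0.459%). All 62 had a mean of at least 1000 reads, and none had 0 reads in a library. Among the 1327 rows the same calls made up 1.21% and 3.47%. By total counts 29 were lower and 24 higher, and with a spread factor of 323.5, taken from rows with 1000 to 10000 reads, 24 were lower and 9 higher. The intervals printed use 229.7 and may be too narrow for genes with a mean above 3000 reads. Genes named in the comparisons below were among those lost. Cdh1, Lamb1, Qk, Apoe, Gclm, Pkm and Spp1 passed no longer with the larger factor, Tpt1, Rpl23 and Rn45s no longer by total counts, and Apod, Aldoa, Atf5, Pgd and Taldo1 under neither. At the edge of the selection, Cers1 (185 reads at 11 DIV and 1815 at 19 DIV) and Snhg11 (629 and 1372) lay just inside a mean of 1000 reads, and Smurf1 (918 and 1079) and Nop10 (1227 and 770) just outside.

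**Figure D1:**
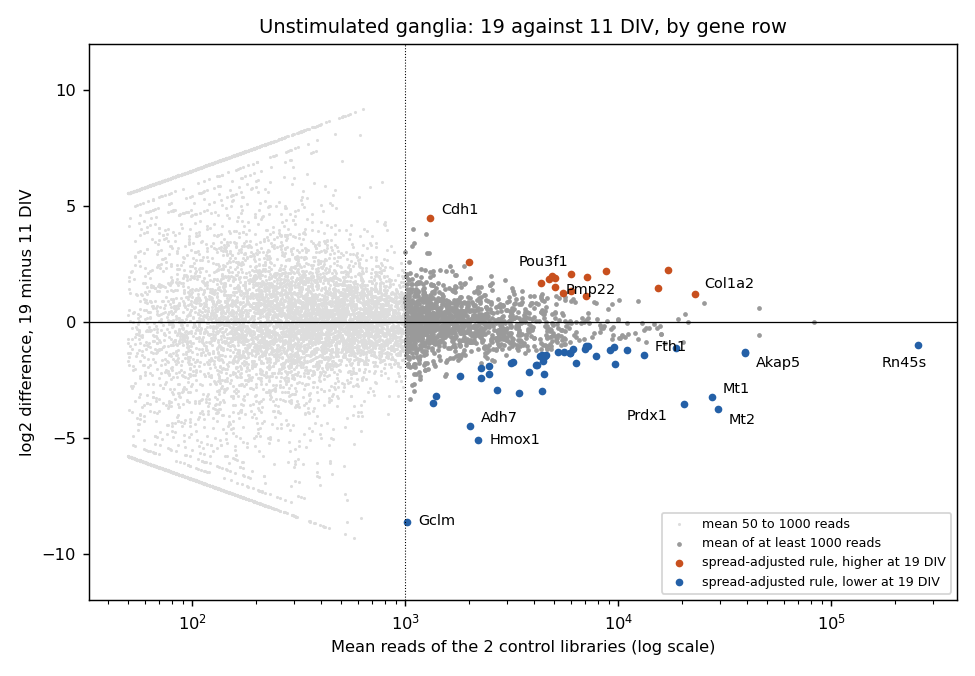
Log2 difference between control ganglia at 19 and 11 DIV (vertical axis, 19 minus 11) against the mean reads of the 2 libraries (horizontal axis, log scale), 1 point per gene row with a mean of at least 50 reads. Orange and blue points are the 16 rows higher and the 46 rows lower at 19 DIV by the spread-adjusted rule, the dotted line marks a mean of 1000 reads, and the scatter widens to the left of it, where the median absolute difference reached 3.92 for means of 50 to 200 reads.

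Genes of peripheral myelin stood higher at 19 DIV. Of the 29 rows on the list of myelin proteins, 26 had a mean of at least 50 reads and 9 a mean of at least 1000. Of these 9, 6 were at least 2-fold higher (12.1% of all rows were), 0 lower and 3 neither, and 3 passed the spread-adjusted rule (1.21% of all rows), all higher. The median log2 difference was 1.83 over the 9 and 1.94 over the 26, beside -0.06 and 0.04 over all rows at the same minimums. In these bulk samples more cells of a type and more RNA per cell cannot be told apart.

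Pmp22, a tetraspan protein of compact myelin whose dosage is altered in inherited neuropathy (protein-coding, on chromosome 11 from 63128982 to 63159547 in GRCm38), was at 317 CPM in control at 11 DIV and 1201 CPM in control at 19 DIV. Its level was 494 CPM in ES at 11 DIV and 979 CPM in ES at 19 DIV. The control library at 11 DIV was the lowest of the 4 and the control library at 19 DIV the highest. The ratio in control ganglia was 3.78 (spread-adjusted interval 1.73 to 9.42), and that in the stimulated pair 1.98.

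Among the remaining myelin genes, Mbp, the basic protein of the cytoplasmic face of myelin, had 4819 reads at 11 DIV and 10562 at 19 DIV, a ratio of 1.84 (1.08 to 3.25). Prx, periaxin, which links the Schwann cell membrane to its skeleton, had 510 and 3264 reads, a ratio of 5.38 (1.31 to 41.8). Cnp, an enzyme of non-compact myelin, was at a ratio of 3.56 (1.29 to 12.3), and Cd9, a tetraspanin of the Schwann cell surface, at 3.93 (1.28 to 16.3). These 4 fell short of the spread-adjusted rule, although their 95% intervals lay above equality. Cd59a, an inhibitor of complement on the cell surface, was at 1.64 (0.377 to 9.10). Mag, an adhesion protein of the inner myelin membrane that fell short of a mean of 1000 reads, had 250 and 1488 reads, a ratio of 5.0 whose interval (0.659 to 177) included equality. Mal, a raft proteolipid, was the only one of the 9 below equality, with 2251 and 2260 reads and a ratio of 0.844 (0.312 to 2.28). Of the 9 members, 8 had their lowest level of all 4 libraries in control at 11 DIV (88.9%, against 21.5% of all 1327 rows). In the stimulated pair the median of the same 9 members was 0.23. Only 1 was at least 2-fold higher there (11.0% of the 1327 rows were), which was Prx (ratio 3.35). Mbp (0.895), Cnp (0.666) and Cd9 (0.793) were below equality there, and the difference between the pairs was not tested.

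The transcription factors of the Schwann cell programme did not stand at one distance from equality. Of the 22 rows of this list, 21 had a mean of at least 50 reads and 8 of at least 1000. All 8 lay above equality (46.9% of all rows did), 3 of them at least 2-fold, and the median log2 difference was 0.92, which was 0.17 over those that reached a mean of 2000 reads. Pou3f1, also called Oct6, which carries Schwann cells from the promyelinating to the myelinating stage (chromosome 4, 124656807 to 124660655), was at 439 CPM at 11 DIV and 1703 CPM at 19 DIV. Its ratio was 3.88 (2.0 to 8.23), and the stimulated pair had 436 and 1048 CPM, a ratio of 2.40. Both libraries at 11 DIV were low and both at 19 DIV higher. Id2, an inhibitor of basic helix-loop-helix factors, was at 347 and 1452 CPM in control, a ratio of 4.18 (2.0 to 9.87), and at a ratio of 1.55 in the stimulated pair. Sox10, the factor that defines the Schwann and satellite lineage, was at 721 and 727 CPM, a ratio of 1.01 (0.516 to 1.99). Jun, a factor of immature and injured Schwann cells that opposes myelination, was at 151 and 276 CPM, a ratio of 1.83 (0.487 to 8.56). Nab2, a partner of Egr2, had a ratio of 4.02 with an interval of 0.672 to 63.4. Egr2, or Krox20, the factor without which Schwann cells do not myelinate, had 3 reads in control at 11 DIV and 393 at 19 DIV, a ratio of 110.1 (37.4 to 536 by counting error). Its spread-adjusted lower end was 0.109, since 393 reads lie in the range where counts were clumped, and ES had 585 reads at 11 DIV and 1935 at 19 DIV.

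Markers that Schwann cells and satellite glia carry whether or not they myelinate were mixed. Of the 29 rows on that list, which shares members such as Sox10 and Cnp with the lists above, 10 had a mean of at least 1000 reads, 4 were at least 2-fold higher, 0 lower, and the median log2 difference was 0.50. Sostdc1, a secreted inhibitor of BMP and Wnt signals, was at 293 and 1167 CPM, a ratio of 3.98 (1.77 to 10.3), and 668 and 1369 CPM in the stimulated pair. Ngfr, the low-affinity neurotrophin receptor of immature Schwann cells, was at 538 and 600.5 CPM, a ratio of 1.12 (0.521 to 2.44). Ncam1, an adhesion molecule of non-myelinating Schwann cells and neurons, was at a ratio of 1.14 (0.602 to 2.20). Ednrb, an endothelin receptor of the neural crest, had 564 and 1524 reads, a ratio of 2.27 (0.466 to 17.1). Sostdc1 was thus several-fold apart between the harvests, while Sox10, Ngfr and Ncam1 had ratios between 1.01 and 1.14, with intervals that reached down to 0.516, 0.521 and 0.602 and up to 1.99, 2.44 and 2.20.

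**Figure D2:**
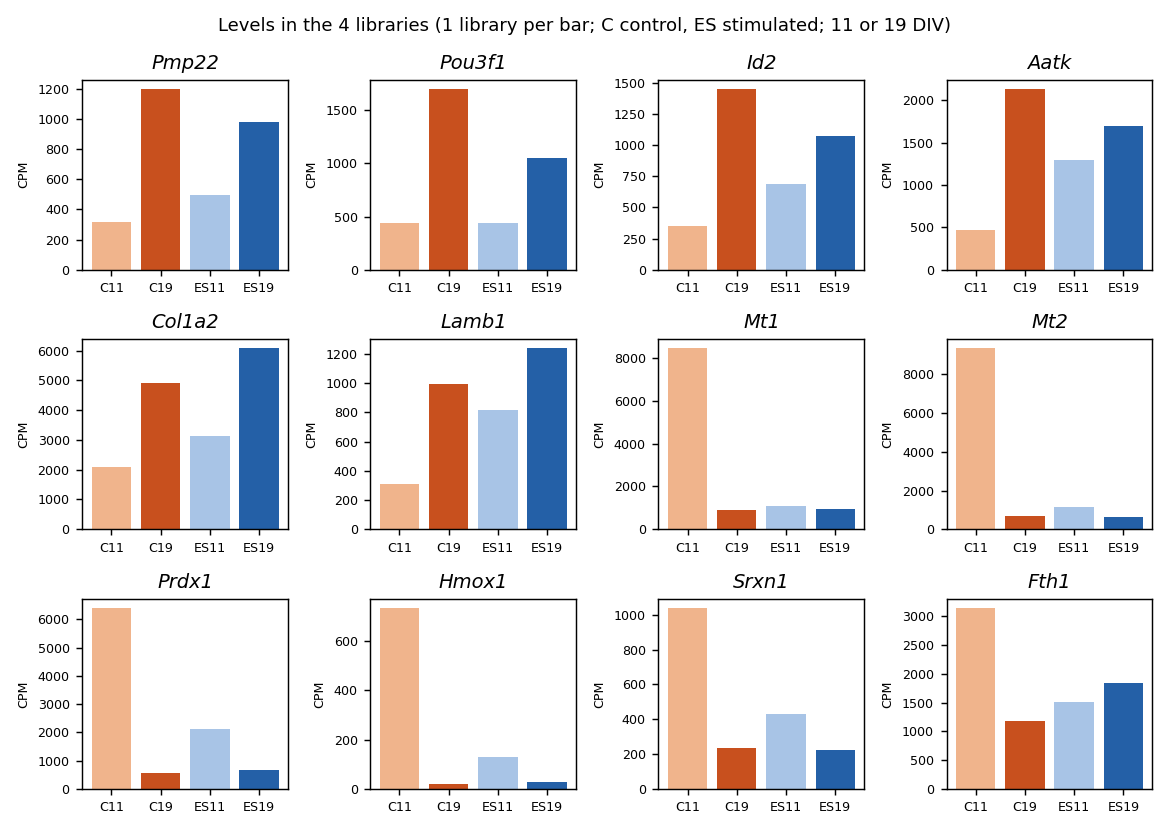
Level in CPM (vertical axes, each from 0) of 12 genes in the 4 libraries, 1 library per bar with no error bar because no group had a replicate; C is control, ES stimulated, and the number is the harvest day in vitro. Pmp22 has its highest bar in control at 19 DIV (1201 CPM), and Mt1 and Mt2 stood at 8456 and 9343 CPM in control at 11 DIV alone, with no more than 1161 CPM in any other library.

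The genes of contact between axon and glia also leaned towards the later harvest, and none passed the spread-adjusted rule. Of 26 rows, 22 had a mean of at least 50 reads and 9 of at least 1000, of which 4 were at least 2-fold higher (12.1% of all rows were), 0 lower and 5 neither. Of the 9, 8 lay above equality (46.9% of all rows), with a median log2 difference of 0.86. Gldn, gliomedin, which Schwann cells deposit at nodes of Ranvier, had 416 and 2290 reads, a ratio of 4.63 (0.936 to 50.9). The juxtaparanodal potassium channels Kcna1 and Kcna2 had 584 and 593 reads at 11 DIV and 2830 and 2882 at 19 DIV, ratios of 4.07 (1.03 to 27.0) and 4.08 (1.04 to 26.5). Ank3, ankyrin G, the scaffold of nodes and axon initial segments, was at 2.05 (1.06 to 4.22), and Dag1, dystroglycan, the laminin receptor of the outer Schwann cell surface, at 1.77 (1.05 to 3.08). Itgb1, the integrin beta chain with which Schwann cells sort axons, was at 0.652 (0.348 to 1.21) and was the only one of the 9 below equality.

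Basal lamina genes leaned the same way. The list had 17 rows, 13 with a mean of at least 50 reads and 10 of at least 1000. Of the 10, 4 were at least 2-fold higher (12.1% of all rows) and 0 lower, 8 lay above equality (46.9% of all rows), and the median log2 difference was 0.81. Lamb1, a laminin beta chain (chromosome 12, 31265234 to 31329644), was at 311 and 994 CPM, a ratio of 3.20 (1.42 to 8.16), and was the member that passed the spread-adjusted rule. Lama2, the laminin chain whose loss causes a dysmyelinating neuropathy, had 440 and 2790 reads, a ratio of 5.33 (1.16 to 52.3). Hspg2, perlecan, was at 2.11 (1.11 to 4.25) in control and also at 2.11 in the stimulated pair. Col4a1, the type IV collagen chain, was at 2.05 (0.983 to 4.59). Sparc, a matricellular protein that Schwann cells and fibroblasts secrete, was at 5582 and 8544 CPM, a ratio of 1.53 whose interval of 1.24 to 1.89 lay above equality but below the 2-fold limit. Nid1, nidogen, was at 0.772 (0.399 to 1.49).

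In the interstitial matrix all 9 genes of 36 that reached a mean of 1000 reads lay above equality (46.9% of all rows did). The median log2 difference was 0.60. Of the 9, 1 was at least 2-fold higher (11.1%), which was near the 12.1% of all rows. Col1a2, a chain of type I collagen (chromosome 6, 4504814 to 4541544), was at 2095 CPM at 11 DIV and 4909 CPM at 19 DIV, a ratio of 2.34 (1.70 to 3.27). Its partner Col1a1 was at 1310 and 2493 CPM, a ratio of 1.90 (1.25 to 2.96). The stimulated pair had the same order, with ratios of 1.93 for Col1a2 and 2.09 for Col1a1. Col3a1, type III collagen, was at a ratio of 1.12 (0.658 to 1.91) in control and 1.86 in the stimulated pair. Serpinh1, the collagen chaperone, was at 1.59 (0.800 to 3.30), and Postn, periostin, at 1.51 (0.457 to 5.72). Fn1, fibronectin, which fell under the mean of 1000 reads, had 1398 and 447 reads, a ratio of 0.269 (0.0255 to 1.51). Of the 8 fibroblast markers, the 5 that are not collagens (Dcn, Lum, Pdgfra, Postn and Fbln1) summed to 507 CPM in control at 11 DIV and 756 CPM at 19 DIV, and to 794 and 1420.1 CPM in ES. The part of that shift in the collagen values was not tested.

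Lipid synthesis, which supplies the myelin membrane, was described by 2 lists. Of 23 cholesterol pathway genes, the 5 that reached a mean of 1000 reads lay above equality (46.9% of all rows did). Of these 5, 1 was at least 2-fold higher (12.1% of all rows), and the median log2 difference was 0.84. Hmgcs1, an early enzyme of the pathway, was at 1.79 (0.780 to 4.46), Acat2 at 1.83 (0.626 to 6.18), Msmo1 at 1.37 (0.452 to 4.54) and Cyp51 at 1.45 (0.409 to 5.88). Of 10 fatty acid and myelin lipid members, 3 were at least 2-fold higher (12.1% of all rows) and 1 lower (13.6%), and the median was 0.57. Elovl5, a fatty acid elongase, had 1099 and 3907 reads, a ratio of 2.99 (1.04 to 10.7), and Degs1, a desaturase of ceramide synthesis, 466 and 2241 reads, a ratio of 4.04 (0.862 to 37.2). Scd2, the main stearoyl-CoA desaturase of nerve, was at 1.33 (0.780 to 2.31) in control and at 0.519 in the stimulated pair. Cers2, the ceramide synthase for very long chains, was at 0.491 (0.136 to 1.58). The apolipoproteins went apart. Apoe was at 674 and 1475 CPM, a ratio of 2.19 (1.23 to 4.08), and Apod, a lipocalin of peripheral nerve, at 1048 and 389 CPM, a ratio of 0.371 (0.169 to 0.765). Over the 5 members of the transport list with enough reads the median was 0.06, with 2 at least 2-fold higher (12.1% of all rows) and 1 lower (13.6%).

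Neuronal genes lay nearer to equality in the unstimulated libraries. Of 35 pan-neuronal rows, 32 had a mean of at least 50 reads and 14 of at least 1000. Of the 14, 12 lay above equality (85.7%, against 46.9% of all rows). At least 2-fold higher were 2 (14.3%, near the 12.1% of all rows), 0 were lower, and none passed the spread-adjusted rule. The median log2 difference was 0.39. Prph, peripherin, the intermediate filament of peripheral neurons, was at 667 and 906 CPM, a ratio of 1.36 (0.713 to 2.66). Tubb3, a beta-tubulin of neurons, had a ratio of 1.33 (0.627 to 2.95), Stmn2, a microtubule regulator of axons, at 1.28 (0.648 to 2.61), and Gap43, a growth cone protein, at 1.39 (0.460 to 4.59). The 2 members past 2-fold were Nefl, the light neurofilament chain (767 and 2656 reads, ratio 2.91, 0.814 to 14.5), and Sncg, gamma-synuclein (687 and 2050 reads, ratio 2.51, 0.623 to 14.5). In the stimulated pair the same 14 members had a median of -1.33, with 11 at least 2-fold lower (12% of the 1327 rows were), and Prph was at 0.285, Tubb3 at 0.315 and Stmn2 at 0.311. Whether the pairs differed in these genes was not tested.

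Of the sensory peptides, Tac1, the precursor of substance P, was at 588 and 1131 CPM in control, a ratio of 1.92 (1.02 to 3.81), and Calca, which encodes calcitonin and its related peptide CGRP, at 739.7 and 964 CPM, a ratio of 1.3 (0.703 to 2.47). In the stimulated pair Tac1 was at 1659 and 308 CPM, a ratio of 0.185. Control libraries lay between these values. Cpe, carboxypeptidase E, which trims peptide precursors, was at 0.433 (0.152 to 1.13), and these 3 were the peptide and nociceptor members with at least 1000 reads out of 26 rows (0 at least 2-fold higher, 1 lower, median 0.38). Maf, the only such mechanoreceptor gene, was at 1.54 (0.405 to 6.96). Of 34 synaptic vesicle rows, 3 had enough reads. Syt4, a vesicle protein, had 1585 and 4846 reads, a ratio of 2.57 (1.05 to 7.20), Syt11 was at 1.96 (0.947 to 4.31) and Atp6v0a1 at 0.618 (0.124 to 2.77), and the median was 0.97. The 3 ion channel genes with enough reads were Kcna1, Kcna2 and Atp1b1 (ratio 0.941, 0.299 to 3.03), with a median of 2.02 that was 0.87 over the 23 with a mean of at least 50 reads. Among the 4 neurotrophic genes with enough reads, all above equality with a median of 0.69, none was past 2-fold, and Ngfrap1 had the largest ratio, 1.87 (0.781 to 4.88).

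**Figure D3:**
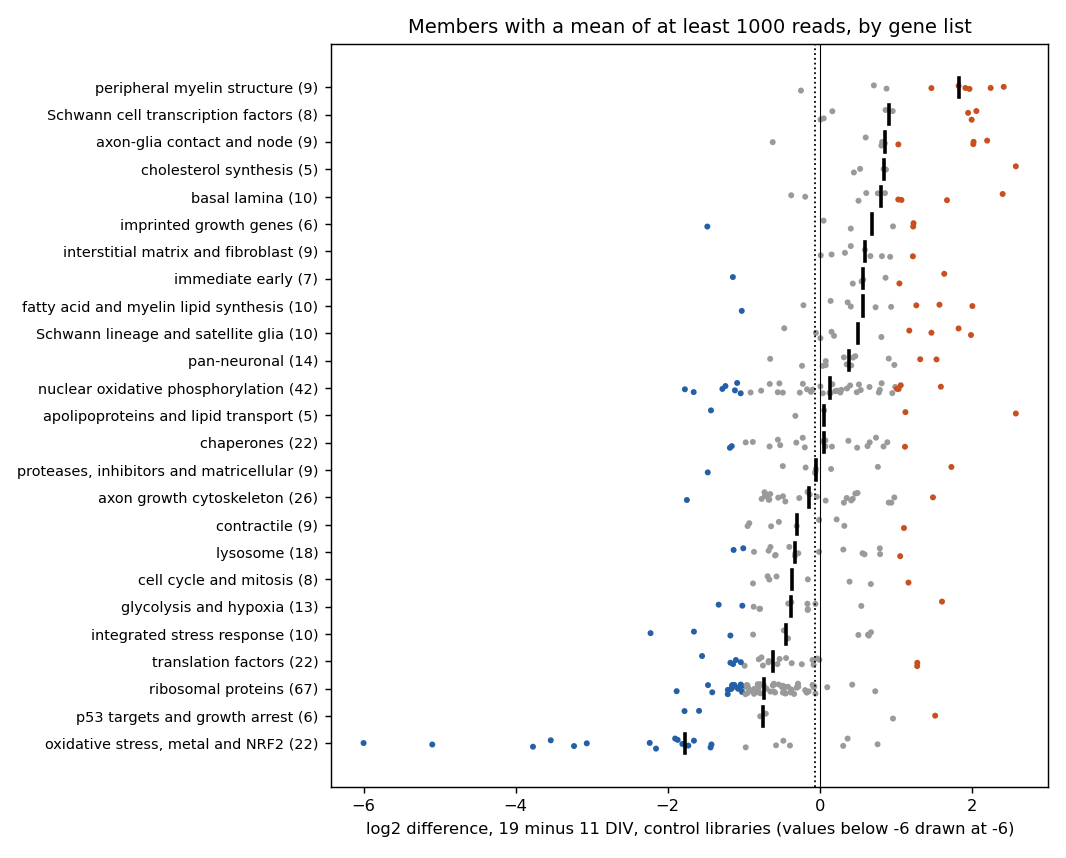
Log2 difference between control ganglia at 19 and 11 DIV (horizontal axis) of each gene with a mean of at least 1000 reads, by gene list with at least 5 such members (number in brackets). Black bars are list medians, orange and blue points lie at least 2-fold above and below, values below -6 are drawn at -6, and the dotted line is the median of all 1327 rows (-0.06); the oxidative stress list has its median at -1.77 and the myelin list at 1.83.

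Many of the genes furthest below equality belonged to the response to oxidants and metal ions. All 38 genes of this list had a row, 37 had a mean of at least 50 reads and 22 of at least 1000. Of the 22, 15 were at least 2-fold lower at 19 DIV (13.6% of all rows), 0 higher and 7 neither. The spread-adjusted rule was passed by 12, all lower (3.47% of all rows were lower by it). The median log2 difference was -1.77, and -1.65 over the 37. Because 18 of the 22 had their highest level of the 4 libraries in control at 11 DIV (81.8%, against 36.3% of all rows), the high values lay mostly in a library that also stood apart in Rn45s and ribosomal protein genes. The part of that library's other properties in the result was not tested.

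Mt1 and Mt2, small cysteine-rich proteins that bind zinc, copper and cadmium, lie next to each other on chromosome 8 (Mt1 at 94179082 to 94180327, Mt2 at 94172664 to 94173568). Mt2 had 54127 reads in control at 11 DIV and 4715 in control at 19 DIV, and 6878 and 5246 in ES. Mt1 had 48987 and 6206 reads in control and 6441 and 7545 in ES. Control at 11 DIV was thus the only high library, and control at 19 DIV was close to the stimulated ones, at 900.3 CPM for Mt1 against 1087 and 945 CPM and at 684 CPM for Mt2 against 1161 and 657 CPM. The ratios of 19 to 11 DIV in control were 0.0732 for Mt2 (0.0442 to 0.115) and 0.106 for Mt1 (0.0686 to 0.159), against 0.566 and 0.869 in the stimulated pair. Prdx1, peroxiredoxin 1, which reduces hydrogen peroxide (chromosome 4, 116685544 to 116700822), was at 6401 CPM in control at 11 DIV and 551 CPM at 19 DIV, and at 2128 and 666 CPM in ES. Its ratio was 0.0861 (0.0485 to 0.143) in control and 0.313 in ES, with the earlier harvest the higher in both pairs. Hmox1, heme oxygenase 1 (chromosome 8, 75093621 to 75100589), had 4258 and 146 reads in control and 754 and 224 in ES, ratios of 0.0288 (0.000111 to 0.251) and 0.220. Gclm, the regulatory subunit of the enzyme that starts glutathione synthesis (chromosome 3, 122245557 to 122270732), had 2031 reads in control at 11 DIV and 4 at 19 DIV, and 670 and 3 in ES. Its control ratio was 0.00166, with a counting interval of 0.000451 to 0.00424 and a spread-adjusted upper end of 0.440.

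The upstream regions of 4 of these genes are shown because the metallothioneins and the antioxidant enzymes were both highest in control at 11 DIV and metal and antioxidant response elements are the sites known for their regulation. Each sequence runs 5′ to 3′ on the strand of the gene, from 250 bases before to 50 bases after the RefSeq start in build GRCm38.p6. Capitals mark, in Mt1 and Mt2, matches to the metal response core (TGCACNC or TGCGCNC) and, in Prdx1 and Gclm, matches to the antioxidant response core (TGACNNNGC), on either strand and with no overlap between the capitals shown.
Mt1, chr8:94178839-94179138, plus strand: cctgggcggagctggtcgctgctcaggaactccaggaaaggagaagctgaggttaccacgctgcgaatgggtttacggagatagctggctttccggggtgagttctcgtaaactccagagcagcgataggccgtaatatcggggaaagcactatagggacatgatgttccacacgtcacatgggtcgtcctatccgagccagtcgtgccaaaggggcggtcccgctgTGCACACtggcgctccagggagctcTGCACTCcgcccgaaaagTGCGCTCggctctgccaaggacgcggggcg
Mt2, chr8:94172368-94172667, plus strand: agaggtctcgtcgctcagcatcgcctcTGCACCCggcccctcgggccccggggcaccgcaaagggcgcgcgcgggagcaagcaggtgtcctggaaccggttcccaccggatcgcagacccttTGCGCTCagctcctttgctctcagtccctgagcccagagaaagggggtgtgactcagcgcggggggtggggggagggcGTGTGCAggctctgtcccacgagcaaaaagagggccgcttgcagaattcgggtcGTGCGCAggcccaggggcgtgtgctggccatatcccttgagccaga
Prdx1, chr4:116685349-116685648, plus strand: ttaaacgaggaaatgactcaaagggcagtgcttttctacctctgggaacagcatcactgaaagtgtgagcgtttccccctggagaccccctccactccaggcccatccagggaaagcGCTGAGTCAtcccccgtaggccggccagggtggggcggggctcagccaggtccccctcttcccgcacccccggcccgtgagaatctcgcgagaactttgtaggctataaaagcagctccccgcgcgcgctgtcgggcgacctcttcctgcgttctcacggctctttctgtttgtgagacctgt
Gclm, chr3:122245307-122245606, plus strand: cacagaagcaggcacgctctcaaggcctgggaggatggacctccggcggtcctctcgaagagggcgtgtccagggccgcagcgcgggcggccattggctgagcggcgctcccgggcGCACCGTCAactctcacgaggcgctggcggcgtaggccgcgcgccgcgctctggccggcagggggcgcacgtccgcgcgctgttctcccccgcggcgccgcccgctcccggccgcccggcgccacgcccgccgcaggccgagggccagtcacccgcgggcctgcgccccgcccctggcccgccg

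The window of Mt1 held 3 matches to the metal core and that of Mt2 4, a number of 3 or more that 1.97% of the 32851 RefSeq promoters of this length reached, while 25.7% had at least 1. Prdx1 and Gclm each held 1 match to the antioxidant core, which 12.4% of all promoters had. Gclm also held 3 matches to the metal core and Mt2 1 to the antioxidant core, not capitalised above. Of the 38 genes on the list, 33 had a RefSeq promoter, of which 9 (27.3%) held a metal core and 10 (30.3%) an antioxidant core. A listed gene was counted if any of its promoters held a match, and several genes had more than 1. The shares over all promoters count each promoter by itself, so the list shares are not on the same footing. A match describes these letters only and shows no binding.

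Other members of the list past the spread-adjusted rule covered iron storage, peroxide reduction and the supply of NADPH. The ferritin chains Fth1 and Ftl1 were at 3148 and 2480 CPM in control at 11 DIV and 1174 and 709 CPM at 19 DIV, ratios of 0.373 (0.243 to 0.561) and 0.286 (0.166 to 0.474). In the stimulated pair they were at 1.21 and 0.836. Prdx6 had 6012 and 854 reads, a ratio of 0.119 (0.0285 to 0.354), and Srxn1, sulfiredoxin, which repairs peroxiredoxins, 6025 and 1611 reads, a ratio of 0.225 (0.0825 to 0.531). Pgd and Taldo1, enzymes of the pentose phosphate pathway, were at 0.302 (0.111 to 0.728) and 0.370 (0.172 to 0.749). Gstp1, a glutathione transferase, was at 0.274 (0.113 to 0.602). The row of its neighbour Gstp2 had nearly the same counts in every library (6183 and 2054 in control, where Gstp1 had 6245 and 2035), so the values of these genes are uncertain. Slc7a11, the cystine transporter, had 3699 and 1398 reads, a ratio of 0.318 (0.103 to 0.850), and did not pass. Members without a 2-fold difference included Sod1 (0.763, 0.417 to 1.39), Txn1 (0.672, 0.288 to 1.54) and Gpx1 (1.24, 0.419 to 3.94). In the stimulated pair the same 22 members had a median log2 difference of -0.42. Of them, 5 were at least 2-fold lower there (12% of the 1327 rows were) and 0 higher (11.0%).

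**Figure D4:**
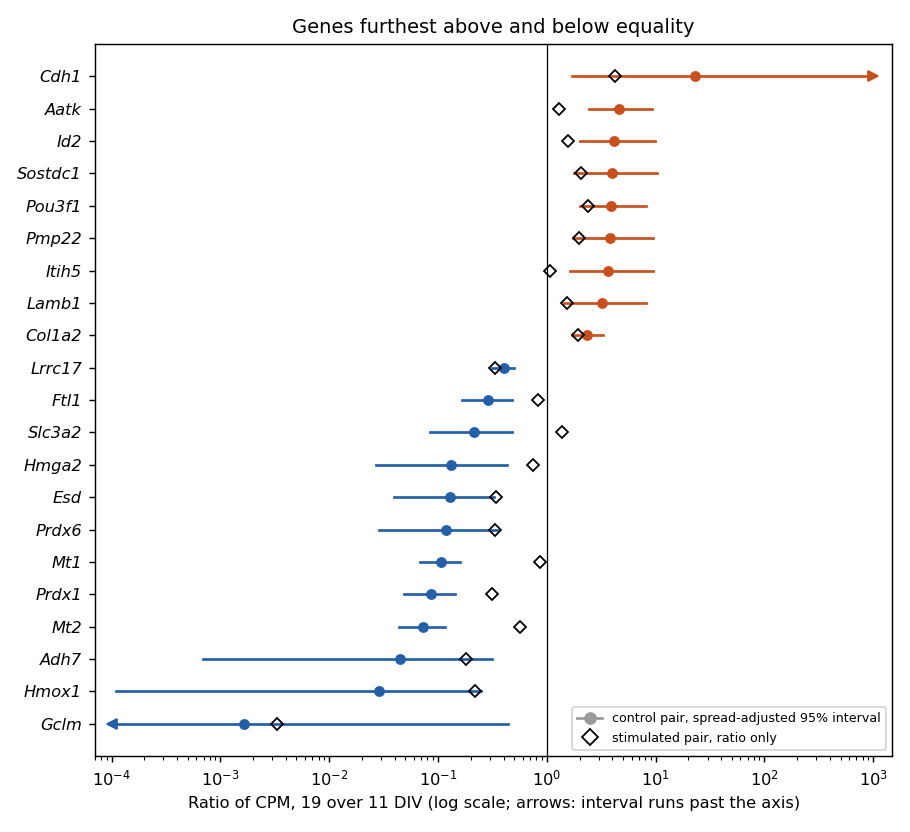
Ratio of CPM, 19 over 11 DIV (horizontal axis, log scale), for 9 genes above and 12 below equality, picked among those whose spread-adjusted 95% interval kept the greatest distance from a ratio of 1. Filled points with bars are the control pair with that interval (arrows where it runs past the axis), open diamonds the ratio in the stimulated pair, which for Mt2 was 0.566 against 0.0732 and for Pmp22 1.98 against 3.78.

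Stress and growth arrest genes related to these were mixed. In the integrated stress response 6 of 10 members lay below equality and 4 above (53.1% of all rows lay below), and of the p53 targets 4 of 6 lay below. The integrated stress response had 34 rows, 10 of them at a mean of 1000 reads or more and Slc7a11 shared with the list above. Of the 10, 3 were at least 2-fold lower, 0 higher, and the median was -0.44 (-1.17 over those with 2000 reads or more). Slc3a2, the heavy chain shared by several amino acid transporters including that for cystine, was at 1236 and 264 CPM, a ratio of 0.214 (0.0846 to 0.476), and at 1.39 in the stimulated pair. Atf5, a transcription factor of this response, was at 0.443 (0.238 to 0.800), and Atf4, its main factor, at 0.545 (0.239 to 1.19). Sars and Tars, tRNA synthetases, were at 1.57 (0.382 to 7.88) and 1.60 (0.351 to 9.34). Of 6 p53 targets and growth arrest genes, 1 was at least 2-fold higher and 2 lower, with a median of -0.74. Cdkn1a, the p21 inhibitor of cyclin-dependent kinases (chromosome 17, 29090976 to 29100727), was at 1626 and 474 CPM, a ratio of 0.292 (0.148 to 0.544), and at 0.693 in the stimulated pair. Cdkn1b, the p27 inhibitor, had 1026 and 3508 reads, a ratio of 2.87 (0.958 to 10.9). Mdm2, which p53 induces and which degrades it, was at 0.582 (0.207 to 1.55).

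Glycolytic genes were slightly below equality. Of 13 members of the glycolysis and hypoxia list, 11 lay below (53.1% of all rows did), with a median of -0.37. Of the 13, 1 was at least 2-fold higher (12.1% of all rows) and 2 at least 2-fold lower. The latter share, 15.4%, was near the 13.6% of all rows. The lower ones were Pkm, pyruvate kinase, at 1393 and 555 CPM (ratio 0.398, 0.208 to 0.733), and Aldoa, aldolase A, with 9078 and 5339 reads (0.494, 0.283 to 0.846). Both passed the spread-adjusted rule. Eno2, the enolase of neurons, was the higher one, with 579 and 2109 reads and a ratio of 3.06 (0.712 to 21.2). Ratios of Aldoa and Pkm in the stimulated pair were 0.345 and 0.607, and 5 of the 13 were at least 2-fold lower there (12% of the 1327 rows were).

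Ribosomal protein genes were lower as a broad group with modest ratios. Of 87 rows, 67 reached a mean of 1000 reads, and 64 of these lay below equality (95.5%, against 53.1% of all rows). At least 2-fold lower were 18 (26.9%, against 13.6% of all rows), and 0 were higher. The spread-adjusted rule was passed by 6, all lower (3.47% of all rows were lower by it). The median log2 difference was -0.73. Rps20, a protein of the small subunit, was at 2507 and 1085 CPM, a ratio of 0.433 (0.274 to 0.671), and Rpl22, of the large subunit, at 1901 and 687 CPM, a ratio of 0.361 (0.205 to 0.617). Rps9 was at 0.659 (0.425 to 1.02) and Rpl23 at 0.476 (0.294 to 0.759). Control at 11 DIV was the highest of the 4 libraries for 54 of the 67. In the stimulated pair the median was -0.34, with 3 of the 67 at least 2-fold lower, a smaller share than the 12% of the 1327 rows. These genes have many processed copies in the genome, and how reads were shared among them is not given in the sources used here. Rn45s was lower too, at 55410 and 27525 CPM, a ratio of 0.497 (0.455 to 0.542), which by total counts was 0.544 and short of 2-fold. Its part in the values of the ribosomal protein genes was not tested.

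Translation factors lay below equality in 20 of 22 members with enough reads (53.1% of all rows did), with a median of -0.61. Of the 22, 5 were at least 2-fold lower (22.7%, against 13.6% of all rows) and 2 higher (9.1%, against 12.1%). Tpt1, a growth-related protein often counted with the translation machinery, was at 4135 and 1928 CPM, a ratio of 0.466 (0.332 to 0.649), and was the member past the spread-adjusted rule. It did not pass by total counts (ratio 0.511). Eef1a1, the main elongation factor, was at 0.597 (0.397 to 0.889), Eef2 at 0.938 (0.653 to 1.35) and Eef1g at 0.342 (0.0880 to 1.09). The higher members were Eif1b and Eif3i, each with a ratio of 2.44 (0.603 to 14.1 and 0.520 to 17.9).

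Nuclear genes of oxidative phosphorylation did not move as a group. Of 42 members with enough reads, 4 were at least 2-fold higher and 7 lower, and the median was 0.14. Atp5a1 and Atp5g3, subunits of ATP synthase, were at 2.06 (0.907 to 5.10) and 1.46 (0.901 to 2.39), Ndufa1, of complex I, at 3.03 (1.05 to 10.9) and Ndufa5, also of complex I, at 0.292 (0.0461 to 1.26). Chaperones had a median of 0.06 over 22 members (-0.10 with the libraries thinned to the smallest total), with 1 at least 2-fold higher and 2 lower. Calr, calreticulin of the endoplasmic reticulum, was at 2.18 (0.990 to 5.24), while the cytosolic Hsp90aa1 and Hsp90ab1 were at 0.441 (0.213 to 0.875) and 0.544 (0.396 to 0.743). Over 18 lysosomal members the median was -0.32, with 1 at least 2-fold higher and 2 lower. Over the 39 with a mean of at least 50 reads it was -0.007. Ctsb, cathepsin B, was at 0.498 (0.212 to 1.11), and Cd63, a tetraspanin of late endosomes, at 0.799 (0.544 to 1.17).

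The cytoskeleton list, made of tubulins, actins and their partners in axon growth, had a median of -0.14 over 26 members, with 1 at least 2-fold higher and 1 lower. Actb was at 0.686 (0.560 to 0.839) and Tuba1a at 0.896 (0.631 to 1.27). The members past 2-fold were Kif1a, an axonal motor protein, at 2.82 (0.927 to 10.8), and Tuba1c, at 0.298 (0.0861 to 0.858). The median of 9 contractile genes was -0.30, with 1 at least 2-fold higher and 0 lower. Over the 14 with a mean of at least 50 reads it was -0.03. Tagln2 was at 0.996 (0.580 to 1.72) and Flna, filamin A, at 0.518 (0.200 to 1.27). Proteases, their inhibitors and matricellular proteins had a median of -0.05 over 9 members, whose sign changed with the scaling (up to 0.08). In it Spp1, osteopontin, was at 1089 and 393 CPM, a ratio of 0.360 (0.166 to 0.737), and Mmp2, a gelatinase of fibroblasts, had 502 and 1993 reads, a ratio of 3.34 (0.714 to 28.1). Timp3, an inhibitor of metalloproteinases bound to the matrix, was at 1.70 (1.05 to 2.81).

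Genes of the cell cycle had a median of -0.36 over 8 members with enough reads of 51 rows, with 1 at least 2-fold higher and 0 lower. Ccnd1, the cyclin D of proliferating Schwann cells, was at 1984 and 1340 CPM, a ratio of 0.675 (0.434 to 1.04), and Ccnd3, another cyclin D, at 2.25 (0.810 to 7.34). Top2a, a topoisomerase of dividing cells, had 1364 and 2591 reads (1.60, 0.543 to 5.26), and Mki67, a nuclear protein of dividing cells, 607 and 466 reads (0.645, 0.0528 to 6.33). Intervals of this width leave room for a several-fold difference in either direction. For 7 immediate early genes the median was 0.57, with 2 at least 2-fold higher and 1 lower. Ier3 was at 0.453 (0.155 to 1.21), Fosl2 at 2.07 (0.529 to 10.8) and Nr4a1 at 3.13 (0.601 to 31.3). Interferon and antigen presentation genes had 3 members with enough reads, none past 2-fold and with a median of 0.39, and B2m was at 1.31 (0.690 to 2.56).

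Imprinted growth genes of embryonic tissue differed among themselves. Of 6 members with enough reads, 2 were at least 2-fold higher and 1 lower, with a median of 0.69, which was 0.03 over the 20 that reached a mean of 50 reads. H19, a non-coding RNA of fetal tissue, was at 572 and 205 CPM, a ratio of 0.359 (0.115 to 0.980). Its neighbour Igf2, the fetal growth factor, had 1037 reads at 11 DIV and 5 at 19 DIV, a ratio of 0.00405 (0.00131 to 0.00949 by counting error), but its spread-adjusted upper end was 1.08. Meg3, a maternally expressed non-coding RNA of neurons, had 1707 and 4773 reads, a ratio of 2.35 (0.978 to 6.36), against 0.330 in the stimulated pair. Nnat, neuronatin, was at 2.36 (0.547 to 14.9), and Dlk1 was at 0 reads in all 4 libraries. Of the insulin-like growth factor system, 4 members had enough reads and none was past 2-fold, with a median of -0.08 whose sign changed with the scaling (up to 0.05). Igfbp5 and Igfbp7, binding proteins of these factors, were at 0.838 (0.447 to 1.57) and 0.822 (0.388 to 1.74) in control and at 3.57 and 3.43 in the stimulated pair.

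Several genes outside the lists were among the furthest from equality. Aatk, a kinase named for apoptosis and present in nerve tissue (chromosome 11, 120007313 to 120047167), was at 468 and 2136 CPM, a ratio of 4.57 (2.43 to 9.35), and at 1299 and 1694 CPM in ES. Itih5, a member of the inter-alpha-trypsin inhibitor family, was at 305 and 1120 CPM in control, a ratio of 3.68 (1.65 to 9.39), and at 1122 and 1204 CPM in ES. For these genes the control library at 11 DIV was the low one and the other 3 lay closer together. Cdh1, E-cadherin, which joins the layers of a Schwann cell's own membrane at non-compact myelin (chromosome 8, 106603351 to 106670246), had 92 and 2532 reads, a ratio of 23.1 with a lower end of 1.71, and 303 and 1710 reads in ES, a ratio of 4.19. Qk, quaking, an RNA-binding protein needed for myelin, was at 2.84 (1.37 to 6.43) in control and 2.48 in ES, and passed the spread-adjusted rule in both pairs. On the lower side, Adh7, an alcohol dehydrogenase, had 3805 and 202 reads, a ratio of 0.0446 (0.000693 to 0.312), and 1226 and 296 in ES. Esd, an esterase of glutathione-linked formaldehyde removal, was at 1315 and 169 CPM, a ratio of 0.128 (0.0395 to 0.329). Hmga2, a chromatin protein of embryonic and dividing cells, was at 802 and 106 CPM, a ratio of 0.132 (0.0268 to 0.434). Lrrc17, a secreted leucine-rich repeat protein, had 53058 and 25267 reads, a ratio of 0.400 (0.316 to 0.504), but its reads were in nearly fixed proportion to those of Akap5 in all 4 libraries and its value is uncertain. Rows that went from 0 reads to many, or from many to 0, could not be separated from clumping. Snord49b, Rilpl2, Col15a1 and Sorcs1 had 0 reads at 11 DIV and 1264, 1158, 1103 and 1071 at 19 DIV, at least 354-, 324-, 309- and 300-fold higher than a count of 3 in that library. Ankra2 and Ephx1 had 1154 and 1044 reads at 11 DIV and 0 at 19 DIV, at least 458- and 414-fold lower. By the spread-adjusted rule all 6 fell short, and bounds of this kind count reads as independent, which they were not.

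The markers of the cells that such explants can hold were read in every library. The 9 Schwann and satellite markers, among them Sox10, S100b, Ngfr, Cdh19 and Mbp, summed to 4335 CPM in control at 11 DIV, 10521 CPM at 19 DIV, and 7099 and 8655 CPM in ES, with Erbb3 and Fabp7 at 0 in both controls. Sensory neuron markers summed to 3331 and 4970 CPM in control, with 2 of 11 at 0 at 11 DIV and 0 of 11 at 19 DIV, and to 5013 and 1587 CPM in ES. The labelled tissue was therefore visible in its neurons and glia in both control libraries. Macrophage markers were low, at 172 and 62.5 CPM, with Aif1, C1qc, Cx3cr1, Mrc1 and Ptprc of 15 at 0 in both controls, and endothelial markers were at 105.5 and 80.8 CPM with 5 of 11 at 0 in both. Perineurial markers summed to 143 and 207 CPM, mural markers to 30.7 and 66.6 CPM, cartilage and bone markers to 114 and 67.7 CPM, astrocyte and radial glia markers to 63.7 and 36.8 CPM and melanocyte markers to 13.6 and 54.0 CPM. Erythroid markers summed to 50.6 CPM at 11 DIV and 0 at 19 DIV, muscle markers to 14.0 and 2.61 CPM, and those of oligodendrocytes and motor neurons to no more than 1.89 CPM in either control library. The part of any shift in cell makeup in the differences above was not tested.

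The stimulated pair shares no library with the control pair and so gives another reading of 19 against 11 DIV, in cultures that had been treated differently and are no replicate. Of the 161 rows at least 2-fold higher in control, 31 (19.3%) were at least 2-fold higher in the stimulated pair (11.0% of all 1327 rows were), and 98 (60.9%) lay above equality (48.8% of all rows). Of the 180 lower rows, 27 (15.0%) were at least 2-fold lower (12% of all rows), and 113 (62.8%) lay below equality (51.2%). Of the 16 rows higher by the spread-adjusted rule, 14 lay above equality in the stimulated pair and 5 were at least 2-fold higher there, among them Pou3f1, Cdh1, Sostdc1 and Qk. The median ratio of the 16 in that pair was 1.65. Of the 46 lower rows, 36 lay below equality and 12 were at least 2-fold lower there. These 12 were Prdx1, Hmox1, Gclm, Prdx6, Adh7, Esd, Aldoa and the 5 genes with proportional counts, Akap5, Lrrc17, Kif3a, Ccdc36 and Timm22. Without those 5, 31 of 41 lay below equality and 7 were at least 2-fold lower. Over all 46 the median ratio was 0.770 in a range of 0.00332 to 3.68. The metallothioneins and ferritins were not among the 12.

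**Figure D5:**
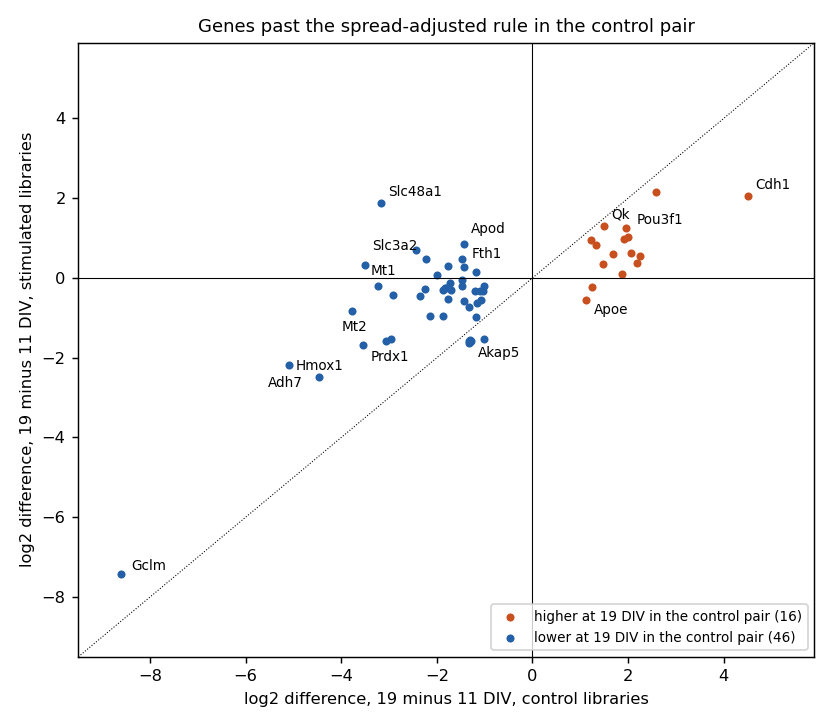
Log2 difference between 19 and 11 DIV in the stimulated pair (vertical axis) against that in the control pair (horizontal axis) for the 62 rows past the spread-adjusted rule in the control pair, 16 higher (orange) and 46 lower (blue); the dotted line marks equal values. Of these, 14 and 36 lie on the same side of 0 in both pairs, and Mt1 and Mt2 lie close to the horizontal line (stimulated ratios 0.869 and 0.566).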

How the data were processed

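The files deposited by the authors held raw read counts per gene symbol, 23282 rows per library, from 3′ tag libraries (QuantSeq) of pooled ganglia. Build mm10, Bowtie2 and bedtools are named in the submitters' processing notes, without versions. Whether counting used the strand or removed duplicate reads is not given in the sources used here. Therefore reads of overlapping or near-identical genes cannot be told apart. Totals ran from 5782834 to 7830950 reads, and counting intervals and the limit at 0 reads cover counting error only.

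Counts were scaled by TMM over all 4 libraries (edgeR 4.0.16 in R 4.3.3) and given as CPM. Ratios carry exact 95% intervals (Clopper-Pearson) on the counts and on counts divided by the spread factor (229.7 for the control pair, 258 for the stimulated pair). Log2 differences used a prior count of 2. With 1 library per group no test across genes was run. Intervals came from scipy 1.17.1, tables from pandas 2.3.3 and numpy 2.4.6 in Python 3.11.15, and plots from matplotlib 3.10.9, and the scripts were tested on simulated data. The 35 symbols on more than 1 row (79 rows) were kept apart. Positions came from GENCODE M21 on GRCm38, in which 22159 of 23238 symbols had 1 gene, and promoters from RefSeq. Other scalings (total counts, DESeq2 1.42.0 size factors, TMM over 2 libraries), thinning, minimums, folds and intervals were tried.

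Genes named were the 12 above and 12 below equality whose spread-adjusted interval kept the greatest distance from it, per list the 3 most abundant members and up to 3 with the largest difference, a set of fixed names, and 6 genes with 0 reads in 1 library. Others, such as Fth1, Srxn1, Taldo1, Gstp1, Pgd, Cd59a, Maf, Atp6v0a1, Atp1b1, Akap5 and the genes in the closing section, were named after their values were seen. A few genes that meet the rule are counted but not reported by name here. The members and the 32 gene lists and 14 marker lists were chosen with earlier results of these data known.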

Additional observations from a re-analysis of the deposited data

Results flagged for a closer look

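Among the 62 genes past the spread-adjusted rule in unstimulated ganglia, 12 lay on the other side of equality in the stimulated pair. The difference between the pairs was not tested, and each pair was 1 library against 1 library. Apoe, 1 of the 10 given here, had a ratio of 2.19 in control and 0.686 in the stimulated pair.

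The remaining 9 were lower at 19 DIV in control. The ratio of Slc48a1, a heme transporter, was 0.110 in control and 3.68 in the stimulated pair, that of Apod 0.371 and 1.81, and that of Tsn, translin, 0.185 and 1.63. Spp1 had ratios of 0.360 and 1.40, Slc3a2 of 0.214 and 1.39, and Zfp219, a zinc finger factor, of 0.0877 and 1.26. Psmd7, a proteasome subunit, had 0.292 and 1.23, and the ferritin chain Fth1 had 0.373 and 1.21. Fscn1, the actin-bundling fascin, had 0.252 and 1.05. With the spread factor of 323.5, Slc48a1, Tsn, Zfp219, Apoe and Spp1 no longer passed, and Psmd7, Apod and Fscn1 passed neither with that factor nor by total counts.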

How the results depend on the processing

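No paired analysis was possible because each group was 1 library, and for the same reason no replicate could be left out. In unstimulated ganglia 161 genes were at least 2-fold higher and 180 lower. Counts were 515 and 465 with a minimum mean of 500 reads, 49 and 81 with 2000, 3757 and 3819 with no minimum, 313 and 356 at 1.5-fold and 63 and 63 at 3-fold, since these settings admit more or fewer genes. By total counts they were 207 and 144, so that 59.0% of calls were higher, against 47.2%. Past the spread-adjusted rule were 16 higher and 46 lower. By total counts 29 were lower, all of them among the 46, with a 95% interval 47 were higher and 76 lower, and with the spread factor of 323.5 there were 9 higher and 24 lower. DESeq2 size factors kept 40 of the 46, thinning 41, and all 16 higher calls were kept under every scaling and under thinning. The median log2 difference of the ion channel list, from 3 genes, was 2.15 by total counts and 2.05 with DESeq2 size factors, against 2.02, and 0.87 with a minimum mean of 50 reads. By the minimum, medians also moved by over 1.5 times for many lists, since other genes enter. Examples at 2000 reads were Schwann transcription factors (0.92 to 0.17) and the integrated stress response (-0.44 to -1.17). Examples at 50 reads were imprinted genes (0.69 to 0.03), lysosomal genes (-0.32 to -0.007) and contractile genes (-0.30 to -0.03). Fatty acid and myelin lipid genes (0.57 to 1.02), cholesterol genes (0.84 to 0.53) and interferon genes (0.39 to 0.20) moved at 50 reads as well. Of the 16 higher genes, 10 were at least 1.5-fold higher in the stimulated pair, against 5 at 2-fold. List medians changed sign by total counts for proteases and the insulin-like growth factor system, and over other settings for chaperones (-0.22 to 0.19) and apolipoproteins (-0.13 to 0.19). Of the genes called, none changed its direction under these settings. Below a mean of 1000 reads the clumping of counts limits what a single gene can show.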

Other observations

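The reads of 5 genes were in nearly fixed proportion in all 4 libraries, of 1357 rows with a mean of at least 1000 reads over those libraries. Akap5, an anchoring protein for protein kinase A, had 52835 reads in control at 11 DIV, 25555 in control at 19 DIV, 61142 in ES at 11 DIV and 27830 in ES at 19 DIV. Lrrc17 had 1.01 reads for each read of Akap5, and no library departed from that proportion by more than 1.83%. Kif3a, a kinesin subunit, had 0.154 reads per read of Akap5 (within 4.89%), Ccdc36 0.148 (within 5.73%) and Timm22, of the mitochondrial inner membrane, 0.141 (within 6.44%). All 5 were counted among the 46 genes lower at 19 DIV, and their values are uncertain as measures of single genes. Kif3a, Ccdc36 and Timm22 no longer passed with the spread factor of 323.5, and Ccdc36 and Timm22 not by total counts either.

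Several myelin and glutathione genes under a mean of 1000 reads had large differences within the clumped range. Pmp2, a lipid-binding protein of myelin, had 349 reads at 11 DIV and 1622 at 19 DIV, and Fa2h, which makes hydroxylated myelin lipids, had 0 and 880. Mpp6, a scaffold of Schwann cell incisures, had 36 and 822 reads, and Pllp, plasmolipin of myelin, 2 and 761. In the other direction Nqo1, a quinone reductase, had 1261 and 165 reads, a ratio of 0.110, and Gclc, the catalytic partner of Gclm, 1449 and 449, a ratio of 0.260. By the spread-adjusted rule all 6 fell short.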
